A study of Mus musculus with 8 samples.

Results

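Of the 29555 CLIP–seq peaks of MBD5 and MBD6 in mouse embryonic stem (mES) cells, 1266 (4.28%) lay on genes of small RNAs: small nuclear RNAs (snRNAs), small nucleolar RNAs (snoRNAs), small Cajal body RNAs (scaRNAs), microRNAs (miRNAs) and the class that GENCODE calls misc_RNA. A peak was counted when the position 15 nt inside its 5′ end lay, on the same strand, in a gene of one of these types in GENCODE release M21 (mouse build mm10). Rn7sk, Rmrp and Rpph1, which also carried a peak in all 4 libraries, were left out by the rule. The 1266 peaks fell on 409 of 5674 annotated small RNA genes. CLIP–seq crosslinks proteins to RNA, recovers the RNA with an antibody and sequences it. The mES cells were otherwise wild type and stably overexpressed the human coding sequence of MBD5 (Flag-MBD5) or of MBD6 (Flag-MBD6) with a Flag tag, so that the proteins measured were tagged and not at their native level. The series held 8 samples in 4 groups of 2, a CLIP group and an input group for each protein, and the 4 CLIP libraries were analysed. The methods and the sample characteristics name a Flag antibody, whereas the labels' extraction text speaks of an antibody to MBD6. Peak lists hold no expression levels, so the identity of the cells was not checked against marker genes.

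Small nuclear RNAs are the RNA cores of the spliceosome, which removes introns, and U7 serves the 3′ processing of histone mRNAs. Box C/D snoRNAs guide 2′-O-methylation and box H/ACA snoRNAs guide pseudouridylation, mostly of ribosomal RNA, and a few, such as U3 and U8, are needed to cleave the ribosomal RNA precursor. Most vertebrate snoRNAs are cut from introns of host genes, and scaRNAs guide the same modifications on snRNAs in Cajal bodies.

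The following sequences, from GENCODE M21 transcripts, show where peaks began on RNAs of several classes. Each is given 5′ to 3′, and capitals mark the 30 nt that follow the median 5′ end of the RNA's peaks. Where an RNA was long, only the stretch around that position is given.
Rnu2-10 (U2, nt 1 to 116, chr11:101658238-101658353, + strand): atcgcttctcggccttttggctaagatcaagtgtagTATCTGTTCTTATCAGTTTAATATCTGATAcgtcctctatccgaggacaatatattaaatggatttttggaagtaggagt
Rnu7 (U7, whole, chr6:124741225-124741286, − strand, within the body of Grcc10): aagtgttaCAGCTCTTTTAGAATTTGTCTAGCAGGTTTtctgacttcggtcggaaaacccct
Gm25203 (U3 copy, nt 1 to 116, chr12:102253572-102253687, − strand): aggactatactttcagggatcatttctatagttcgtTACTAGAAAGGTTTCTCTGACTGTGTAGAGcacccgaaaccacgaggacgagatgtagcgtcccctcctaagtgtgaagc
Snord89 (box C/D, whole, chr1:39548745-39548854, − strand, within the body of the non-coding gene Gm15832): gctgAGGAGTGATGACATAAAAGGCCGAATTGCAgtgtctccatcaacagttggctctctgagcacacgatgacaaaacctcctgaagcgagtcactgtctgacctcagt
Snord118 (U8, whole, chr11:69073427-69073561, + strand): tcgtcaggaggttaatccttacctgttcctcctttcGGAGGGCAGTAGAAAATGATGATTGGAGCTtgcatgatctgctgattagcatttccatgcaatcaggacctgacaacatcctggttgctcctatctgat
Snora73b (box H/ACA, nt 1 to 120, chr4:132352407-132352526, − strand, within the body of Rcc1): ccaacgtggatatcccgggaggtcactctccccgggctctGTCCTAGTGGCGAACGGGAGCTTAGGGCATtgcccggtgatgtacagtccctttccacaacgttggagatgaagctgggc
Scarna2 (scaRNA, nt 139 to 258, chr3:108554494-108554613, − strand): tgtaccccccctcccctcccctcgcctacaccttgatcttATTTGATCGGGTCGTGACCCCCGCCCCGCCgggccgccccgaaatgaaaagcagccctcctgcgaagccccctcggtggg
Terc (telomerase RNA, nt 103 to 222, chr3:96414638-96414757, − strand): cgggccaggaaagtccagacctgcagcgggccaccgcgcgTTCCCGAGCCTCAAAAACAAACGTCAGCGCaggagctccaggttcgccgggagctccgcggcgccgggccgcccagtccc
Rny1 (Y RNA, whole, chr6:47788069-47788180, − strand): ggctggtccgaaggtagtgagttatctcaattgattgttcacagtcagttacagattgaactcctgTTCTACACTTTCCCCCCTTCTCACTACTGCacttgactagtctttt
Peaks of Snord89 began 3 or 4 nt from the start of the RNA, whereas those of Rnu2-10, Gm25203 and Snord118 began at a median of 36 nt inside it. The 5′ end of a peak is the point at which the pile-up of reads, each extended to 150 nt, passed the authors' threshold, so it lies near the first read starts but is not itself a crosslink. For the same reason no peak was shorter than 150 bp, and 98.5% of the peaks reached past the 3′ end of the RNA they began on.

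The number of peaks on small RNAs was nearly the same for both proteins, although Flag-MBD6 had many more peaks in all. Flag-MBD5 libraries held 300 and 297 such peaks and Flag-MBD6 libraries 336 and 333. All peaks numbered 5362 and 5388 in the Flag-MBD5 pair and 9218 and 9587 in the Flag-MBD6 pair. Small RNAs therefore took 5.59% (95% Wilson interval 5.01 to 6.24%) and 5.51% (4.93 to 6.15%) of the Flag-MBD5 peaks and 3.65% (3.28 to 4.05%) and 3.47% (3.13 to 3.86%) of the Flag-MBD6 peaks. The intervals of the proteins did not overlap. The estimated number of reads behind the peaks also differed between the proteins, at 478790 and 500143 with Flag-MBD5 against 983918 and 1111742 with Flag-MBD6, and protein and depth cannot be told apart in these shares.

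For each protein the difference between its 2 libraries was smaller than sampling noise, so each protein was counted as 1 sample and the differences between the proteins carry no test. Over 242 genes with a peak in all 4 libraries, the chi-square of summit reads, divided by its degrees of freedom, was 0.547 for the Flag-MBD5 pair and 0.404 for the Flag-MBD6 pair. Between the first library of each protein it was 1.39, with 1 library on each side and so no test of the difference. The authors collapsed identical reads and kept at most 5 reads with the same position, so the counts are not free to vary as independent reads would, and a value below 1 does not measure how well the libraries repeat. The intervals cover counting error only.

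Small nucleolar RNAs carried most of the peaks. They held 906 (71.6%), snRNAs 228 (18.01%), scaRNAs 68 (5.37%), miRNA genes 61 (4.82%) and misc_RNA genes 39 (3.08%), with 36 peaks counted for more than 1 gene. In relation to the annotation, scaRNAs were reached most often: 20 of 46 genes had a peak, against 273 of 1483 snoRNA genes, 76 of 1383 snRNA genes, 12 of 561 misc_RNA genes and 28 of 2201 miRNA genes. Much of the annotation consists of unnamed copies. Among genes with an established symbol, 71 of 98 Snord, 34 of 40 Snora, 8 of 9 Scarna and 16 of 17 Rnu genes had a peak.

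**Figure D1:**
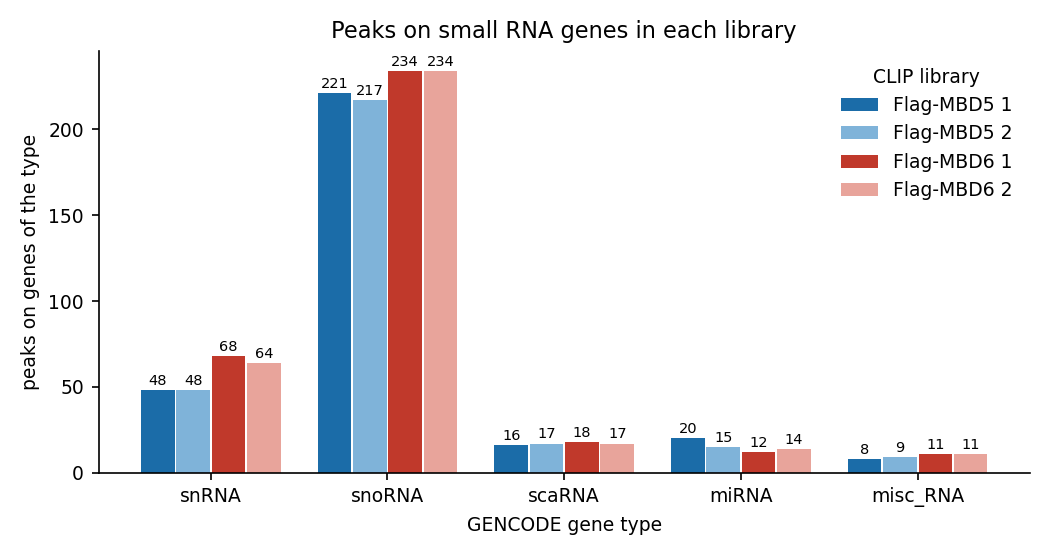
Number of peaks (y axis) on genes of each small RNA type (x axis) in the 4 CLIP libraries, with 1 bar per library and the count above it. In every library snoRNA genes held most peaks, between 217 and 234, and the bars of snRNA genes stand at 48 for both Flag-MBD5 libraries and at 68 and 64 for Flag-MBD6.

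Sites on small RNAs were found in every library more often than sites in general. Overlapping peaks of the 4 libraries formed 390 small RNA sites, of which 243 (62.3%, interval 57.4 to 67.0%) were found in all 4 libraries. Over all 12074 sites that share was 29.5%. These 390 sites were scored on peaks counted on small RNAs, whereas all sites were scored on any peak. When any peak was scored, 389 sites held a small RNA peak and 267 (68.6%) of them were found in all 4 libraries. On that scale 30 (7.71%, interval 5.46 to 10.8%) were found in both Flag-MBD6 libraries and in neither Flag-MBD5 library, against 20.6% of all sites. In both Flag-MBD5 libraries and in neither Flag-MBD6 library were 6 (1.54%, interval 0.709 to 3.32%), near the 1.28% of all sites. Peaks on small RNAs also held more reads. Their median was 38.5 and 39 reads at the summit with Flag-MBD5 and 44.5 and 50 with Flag-MBD6, whereas other peaks had 15, 16, 19 and 21 reads. How far the number of reads sets the sharing was not tested.

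Fold enrichment is the ratio of the pile-up at the summit to the local background, with 1 added to each. It differed less. Its median was 12.5 and 13.4 for small RNA peaks in the Flag-MBD5 libraries, where other peaks had 10.1 and 10.3. In the Flag-MBD6 libraries it was 11.4 and 11.8, close to the 10.8 and 11.04 of other peaks. Small RNA peaks stood on a higher background, with a median rate of 1.61 reads in each Flag-MBD5 library and of 2.63 and 3.26 with Flag-MBD6, against 0.393 to 0.690 for other peaks. They were better represented among the 100 peaks with the lowest q values of each library (26, 28, 18 and 17) than among the 100 with the highest fold enrichment (4, 5, 1 and 0).

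Among snRNAs, peaks were found on RNAs of both spliceosomes and on U7. Of 16 listed snRNAs, U3 RNAs and related RNAs with a gene of that name, 15 had a peak in all 4 libraries, and Rnu6 had none in any. Families were assigned to annotated copies by at least 80% identity to a named RNA.

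U2, which pairs with the branch point of introns, had peaks on 14 genes, 13 of them in all 4 libraries. The fold enrichment of Rnu2-10 was 25.4 and 23.0 with Flag-MBD5 against 28.6 and 25.3 with Flag-MBD6, with 147, 140, 196 and 218 reads at the summit. The values of the proteins overlapped. Peaks of U2 copies began at a few shared places: 12 of 55 began right after nt 36, on 7 genes and in all 4 libraries, 6 after nt 50 and 7 after nt 65. In the sequence above, nt 36 is the G that ends the lower-case stretch.

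U5, which aligns the exon ends, had peaks on 10 genes, 7 of them in all 4 libraries. Rnu5g had a fold enrichment of 20.2 and 16.2 in the Flag-MBD5 pair and of 18.9 and 12.3 in the Flag-MBD6 pair. Of 36 U5 peaks, 77.8% began 20 to 40 nt inside the RNA and 9 began right after nt 27. G preceded the 5′ end in 8.33% of them.

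U1, which pairs with 5′ splice sites, had peaks on 24 genes, 15 of them in all 4 libraries. Rnu1b6 reached a fold enrichment of 19.9 and 14.8 with Flag-MBD5 and of 18.8 and 15.1 with Flag-MBD6. Rnu1a1 had 11.5 and 9.10 with Flag-MBD5 against 15.5 and 12.4 with Flag-MBD6, on 12 to 24 reads. The values of the proteins overlapped for Rnu1b6, and for Rnu1a1 both Flag-MBD6 values were above both Flag-MBD5 values. Among all sites with a peak in all 4 libraries, 56.0% had that order and 10.3% the reverse. Of 78 U1 peaks, 19 began after nt 13 and 15 after nt 31, both times after a C. Of the 24 U1 genes, 14 have a copy of identical sequence, as have 6 of the 14 U2 genes. The authors' alignment placed a read that matched up to 10 places equally well at 1 of them, so the values of single copies are uncertain.

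The less abundant snRNAs were represented as well. Rnu7 had a fold enrichment of 26.1 and 27.2 in the Flag-MBD5 pair and of 26.0 and 13.9 in the Flag-MBD6 pair, with peaks that began 5 to 10 nt from its start. Both Flag-MBD6 values were below both Flag-MBD5 values, 1 of them barely. Rnu11, of the minor spliceosome, had 24.9 and 16.4 with Flag-MBD5 and 26.9 and 20.2 with Flag-MBD6. Rnu12, which does the work of U2 in that spliceosome, had the lowest values of the 3, at 8.12 and 4.29 with Flag-MBD5 against 9.57 and 8.78 with Flag-MBD6. The proteins overlapped for Rnu11, and for Rnu12 both Flag-MBD6 values were above both Flag-MBD5 values.

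U6 copies differed from the other snRNAs in that all their peaks came from Flag-MBD6 libraries. U6 forms part of the catalytic core of the spliceosome and has many annotated copies. Peaks lay on 13 copies, 11 in the first Flag-MBD6 library and 8 in the second, and 6 copies had a peak in both. None of these copies had a peak in either Flag-MBD5 library. Gm25321 had the highest fold enrichment, 21.0 and 17.6, on 31 and 27 reads. Gm22363 is 99.1% identical to Rnu6 and had 15.1 and 12.6, on 22 and 19 reads. The U6 peaks held 9 to 31 reads at the summit, and the lowest peak of any kind held 5 reads in each Flag-MBD5 library and 6 in each Flag-MBD6 library. The part of the lower Flag-MBD5 depth in this difference was not tested. The authors' alignment kept only reads that matched at most 10 places, so reads shared by more U6 copies were dropped. Whether this limit left Rnu6 without a peak was not tested, and its lack of a peak does not show a lack of binding.

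Box C/D snoRNAs made up the largest class with peaks. By their motifs, 128 snoRNA genes with a peak belonged to it, 102 of them in all 4 libraries, and the class had 459 peaks. A gene was placed in it when GATG stood in the first 25 nt and CTGA in the last 20 nt of an RNA of at most 160 nt. Every Snord symbol that fell in a class fell in this one. Peaks of box C/D snoRNAs began close to the RNA's own 5′ end, at a median of 11 nt. Of the peaks, 48.1% began at most 10 nt inside it, counting any that began before it. Taken per gene, as the median over its libraries, 63 of 128 genes (49.2%, interval 40.7 to 57.8%) had peaks that began there.

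Snord89 had the highest mean fold enrichment of the class, 51.1 and 58.5 in the Flag-MBD5 pair and 49.9 and 29.3 in the Flag-MBD6 pair. Its peaks began 3 or 4 nt from its start in every library, and both Flag-MBD6 values were below both Flag-MBD5 values. Snord16a, which lies within the ribosomal protein gene Rpl4, had 39.8 and 39.1 with Flag-MBD5 against 19.5 and 21.3 with Flag-MBD6. Its summits held 94, 96, 83 and 92 reads, nearly the same number in libraries of very different depth. Peaks of Gm26330 began at nt 3 in all 4 libraries and its fold enrichment was 35.8, 30.5, 23.8 and 27.1, with Flag-MBD5 first. Snord87, Snord99 and Snord32a also belonged to the 30 genes with the highest mean fold enrichment among those found in all 4 libraries, with means of 28.4, 25.7 and 23.4.

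Box H/ACA snoRNAs were fewer in all libraries and their peaks began farther inside. There were 107 such genes with a peak, 50 of them in all 4 libraries, and 319 peaks. The class needed ACA within 4 to 9 nt of the 3′ end and a length of at least 110 nt. Their peaks began at a median of 36 nt, and 12.2% of them began at most 10 nt inside, counted in the same way. Taken per gene, 9 of 107 (8.41%, interval 4.49 to 15.2%) did so. The rule needs the position 15 nt inside a peak to lie in the RNA, so a shorter RNA allows a narrower range of starts. Median length was 74.5 nt for box C/D genes with a peak and 134 nt for box H/ACA genes. The part of length in the difference between the classes was not tested. In each single library the box C/D median lay between 7 and 14.5 nt and the box H/ACA median between 34 and 39 nt.

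Snora73b and Snora73a, the U17 RNAs that act in cleavage of the ribosomal RNA precursor, both lie within Rcc1. Snora73b had 29.9 and 44.2 with Flag-MBD5 and 38.8 and 21.3 with Flag-MBD6. Snora73a had 28.3 and 28.7 with Flag-MBD5 against 31.4 and 16.2 with Flag-MBD6, so that the proteins overlapped for both. Snora17 had 35.2, 28.2, 28.4 and 46.6, and Snora74a, within Gm28285, had 43.2, 39.8, 40.8 and 51.5, with Flag-MBD5 first. Snora31, within the gene Tpt1, had higher values with Flag-MBD6, 32.9 and 31.9 against 14.6 and 17.5.

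All 10 annotated U3 genes had a peak in all 4 libraries. U3 is the box C/D RNA that pairs with the ribosomal RNA precursor for its early cleavages. Gm25203, a U3 copy on chromosome 12, had the highest mean fold enrichment of all small RNA genes found in all 4 libraries, 66.6 and 63.2 in the Flag-MBD5 pair and 59.0 and 40.01 in the Flag-MBD6 pair. Both Flag-MBD6 values were below both Flag-MBD5 values, on 97, 102, 127 and 126 reads at the summit. The 4 identical copies Rnu3b1, Rnu3b2, Rnu3b3 and Rnu3b4 each held between 456 and 471 reads for Flag-MBD5 and between 497 and 519 for Flag-MBD6. Rnu3a held 598, 609, 606 and 630 reads and had a fold enrichment of 18.3, 17.9, 12.1 and 10.5, with both Flag-MBD6 values below both Flag-MBD5 values. U3 peaks had a median width of 300 bp and 82.5% began 20 to 40 nt inside the RNA.

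Other snoRNAs of ribosomal RNA maturation had peaks too. Of 19 listed RNAs of this kind and of Cajal bodies with a gene of that name, 16 had a peak and 14 had one in all 4 libraries. Snord118 (U8) had 31.1 and 50.0 with Flag-MBD5 and 17.2 and 24.3 with Flag-MBD6. Snord13 had 21.3 and 19.3 with Flag-MBD5 against 18.6 and 14.8 with Flag-MBD6, and Snord22 had 16.2, 15.5, 14.2 and 12.3. In these 3 RNAs both Flag-MBD6 values were below both Flag-MBD5 values. Snord14a had a peak in all 4 libraries, Snord14c in 1, and Snord14d, Snord14e and Scarna9 had none.

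**Figure D2:**
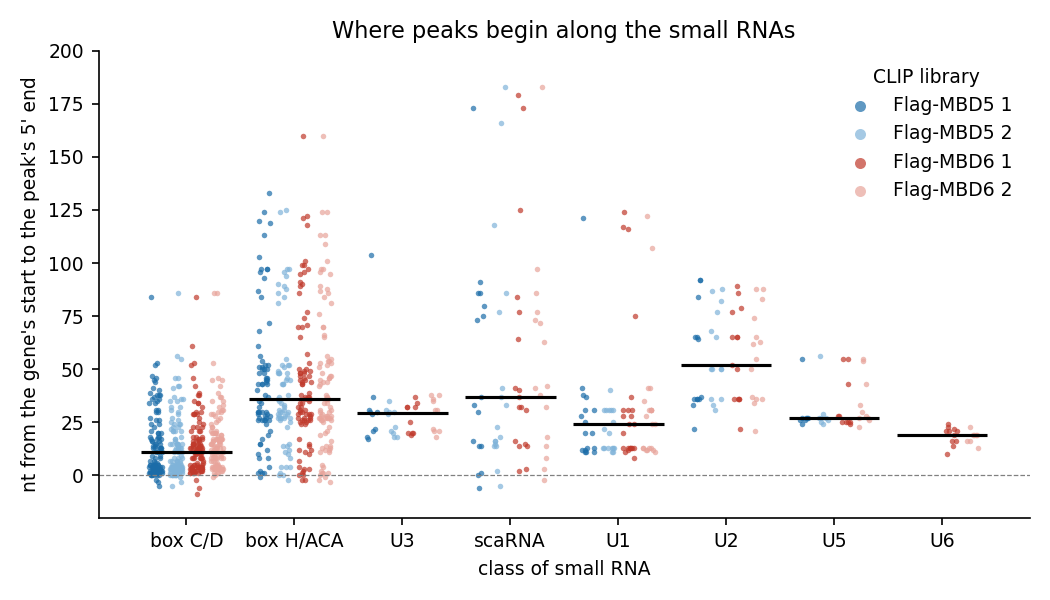
Distance in nt from the annotated start of the RNA to the 5′ end of each peak (y axis) for 8 classes of small RNA (x axis), with 1 point per peak and gene, colours for the libraries and black lines for the class medians; 2 points above 200 nt are not shown. Box C/D points cluster near 0 with a median of 11 nt, box H/ACA points lie around a median of 36 nt, U5 points form a narrow band at 27 nt, and U6 has points only from Flag-MBD6.

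The scaRNAs gave peaks that began at varied places along these RNAs, which had a median length of 139.5 nt. Of 20 scaRNA genes with a peak, 14 had one in all 4 libraries. Scarna2, a guide of 414 nt, had a fold enrichment of 41.8 and 29.7 in the Flag-MBD5 pair and 20.8 and 20.2 in the Flag-MBD6 pair, and its peaks began 173 or 183 nt inside. Both Flag-MBD6 values were the lower ones. Gm25820, within Khdc4, had 39.2, 27.1, 33.1 and 32.0, with peaks that began at nt 14 in every library. Gm24289 had 26.6, 28.2, 25.9 and 25.4. Scarna13 had 14.8 and 19.9 with Flag-MBD5 and 22.7 and 23.2 with Flag-MBD6, with both Flag-MBD6 values the higher ones, and its peaks began between 1 and 38 nt. Scarna3a, Scarna8, Scarna3b and Scarna6 had mean fold enrichments of 19.5, 14.8, 12.9 and 5.93, and Scarna17 had a peak in 1 library of each protein.

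Among the remaining RNAs, the signal recognition particle and telomerase RNAs were found with both proteins and a Y RNA with Flag-MBD5 alone. Of 7 listed RNAs of these kinds, 5 had a peak and 4 had one in all 4 libraries, while Rny3 and Vaultrc5 had none. Terc, the template RNA of telomerase, had a fold enrichment of 5.53 and 12.4 with Flag-MBD5 against 13.4 and 9.50 with Flag-MBD6, with peaks that began 118 to 150 nt inside. Rn7s1, an RNA of the particle that targets ribosomes to the endoplasmic reticulum, had 7.59 and 8.07 in the Flag-MBD5 pair and 5.87 and 5.15 in the Flag-MBD6 pair on 256 to 269 reads. Rn7s6, of the same particle, had 11.7, 10.8, 16.9 and 12.9, so that Flag-MBD6 was lower on Rn7s1 and higher on Rn7s6 without overlap. Peaks were also counted on 5 copies of 7SK, since the rule left out only Rn7sk itself.

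Rny1, a Y RNA that binds the Ro protein, had a peak in both Flag-MBD5 libraries and none in the Flag-MBD6 libraries. Its fold enrichment was 5.43 and 6.93, on 62 and 70 reads, and both peaks began after nt 66 and were 150 bp wide. Scored on counted peaks alone, 10 of 390 small RNA sites (2.56%) were found in both Flag-MBD5 libraries and in no Flag-MBD6 library. Over all sites, scored on any peak, that share was 1.28%. Of the 10 sites, 6 had no Flag-MBD6 peak of any kind, among them Rny1, Snord123, Mir5099 and Gm24130. At the other 4 sites, such as Gm23547, a Flag-MBD6 peak overlapped the site but was not counted on the gene. Scored in the same way, 33 small RNA sites (8.46%) were found in both Flag-MBD6 libraries alone, below the 20.6% of all sites scored on any peak. Of the 33 sites, 29 had no Flag-MBD5 peak of any kind. They included U6 copies, the U1 copy Gm26110 (17.8 and 17.8 in fold enrichment) and Snora28 (16.7 and 15.5), within Eif5.

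Few miRNA genes had a peak, and most of those that recurred overlapped a snoRNA. None of 20 listed miRNAs of pluripotent cells, the Mir290, Mir302 and Mir17 clusters, had a peak in any library, and over all 2201 annotated miRNA genes the share with a peak was 1.27%. Of 28 miRNA genes with a peak, 15 overlapped a snoRNA, scaRNA or snRNA gene on the same strand. Of the 7 found in all 4 libraries, 5 did so (Gm47284, Gm47309, Gm47277, Gm49349 and Mir1291). Snord43, typed as a miRNA in this annotation but named as a box C/D snoRNA, had 45.3 and 36.2 with Flag-MBD5 and 21.4 and 25.4 with Flag-MBD6. Mir6236 was the remaining gene, with 9.95, 6.91, 8.37 and 3.72.
Mir1291 lies over Snora34 at chr15:98519762-98519878 and had a fold enrichment of 13.3 and 9.78 with Flag-MBD5 against 14.0 and 17.0 with Flag-MBD6. Its peaks began 26 and 76 nt inside the gene for Flag-MBD5 and 73 and 38 nt inside for Flag-MBD6, and the nearest began 1 nt from the start of the annotated mature miRNA, which is shown from RefSeq (GRCm38.p6, chr15:98519828-98519853, − strand) with its seed, bases 2 to 8, in capitals.
mmu-miR-1291: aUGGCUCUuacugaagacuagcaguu

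Most host genes of snoRNAs and scaRNAs with a peak also carried another peak in an exon, but most non-coding hosts did not. Peaks counted on a small RNA were left out of the exon counts of hosts and listed genes. This held also where their assigning position lay in such an exon. The snoRNAs and scaRNAs with a peak and a host lay in 162 host genes, and 108 of these (66.7%) also had a peak in an exon in at least 1 library. Among non-coding hosts the share was 23.1%, 6 of 26, whereas 102 of 136 protein-coding hosts had one. Over all protein-coding genes 18.3% had an exon peak in at least 1 library, and over all genes other than small RNAs 9.84% did. Hosts and other genes were not matched for expression. Gas5, a non-coding host, had a peak on 7 of its 9 snoRNA and scaRNA genes, all 7 in all 4 libraries, and no exon peak in any. Snhg1 likewise had peaks on 7 of 8 genes and none in its exons. Zfas1 had peaks on 3 genes and none in its exons.

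Ribosomal protein hosts went both ways. Rpl23a had peaks on 3 genes, in all 4 libraries, and none in its exons. Rpl4 had peaks on 4 of 5 genes and 4 exon peaks in each library. Of the 23 hosts shown with 3 or more small RNAs that carried a peak, 8 had no exon peak. Of 19 listed host genes, 10 had an exon peak, against 9.84% of all genes other than small RNAs. Eef2, the translation elongation factor, had 8 to 10 per library and Ncl, nucleolin, 6 to 9. Of 22 listed protein genes of snRNPs and snoRNPs, 13 had a peak, led in Flag-MBD5 by Prpf8 with 8 in each library, and of all 21924 protein-coding genes 18.3% had one. The lists and all genes were not matched for expression.

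**Figure D3:**
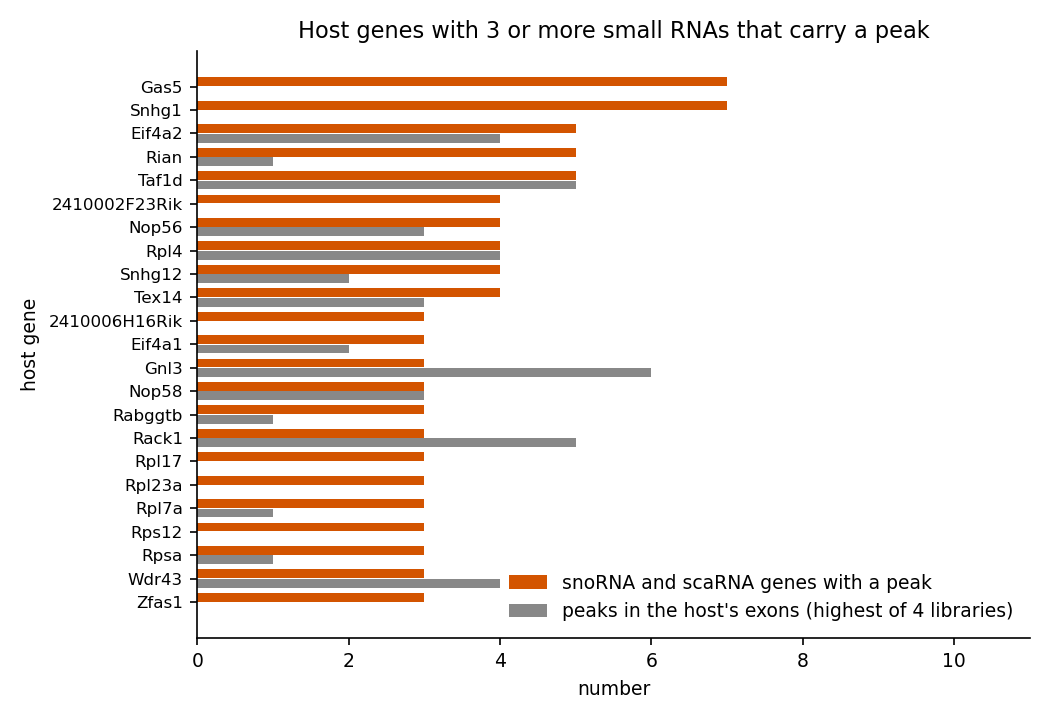
Host genes (y axis) with 3 or more snoRNA or scaRNA genes that carry a peak, with the number of those genes in orange and the highest number of peaks in the host's exons in any of the 4 libraries in grey (x axis, number). Peaks counted on a small RNA are left out of the grey bars. Gas5 and Snhg1 have 7 small RNA genes with a peak and no grey bar, whereas Gnl3, Rack1 and Wdr43 have more exon peaks than small RNA genes with a peak.

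The position that assigned a peak also lay in an exon of a gene of another type for 422 of the 1266 peaks (33.3%). Without these peaks the share of small RNAs was 3.67% and 3.60% in the Flag-MBD5 libraries against 2.47% and 2.35% with Flag-MBD6, with intervals that again did not overlap between the proteins.

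The RNAs with peaks held the C box, the D box and the searched form of the Sm site more often than the annotation as a whole. Searches were made on the RNA strand only. The C box TGATGA stood in the first 30 nt of 34.8% of the 273 snoRNA genes with a peak, against 22.3% of all 1483. The D box CTGA, also part of the class rule above, stood in the last 20 nt of 58.2%, against 35.2%. The ACA box was about as frequent in both, at 44.0% and 44.9%. For the Sm site, where the Sm ring of proteins sits, only the exact string ATTTTTG was searched. It was found in 23.7% of the 76 snRNA genes with a peak and in 3.33% of all 1383. Other forms of the site were not searched, so genes without this string may still have one. All 68 peaks on snRNAs with this string began upstream of it, at a median of 48 nt. Of 312 box C/D peaks with a TGATGA, 170 began after the first base of that box.

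The base before the 5′ end of the peaks differed from that of other peaks. RNase T1, used for the digestion, cuts after G. On small RNAs, G preceded the 5′ end in 59.6% (interval 53.9 to 65.2%) and 57.3% (51.5 to 63.0%) of the Flag-MBD5 peaks and in 51.7% (46.3 to 57.0%) and 53.6% (48.1 to 58.9%) of the Flag-MBD6 peaks. Other peaks in annotated transcripts had G there in 82.3%, 81.6%, 73.3% and 72.6%. T preceded 13.3 to 18.3% of small RNA peaks and 2.67 to 4.10% of other peaks. Among box C/D peaks, G preceded 42.2% of those with 1 to 5 nt of the RNA before them and 69.1% of those with 6 to 15 nt, pooled over libraries that share genes. The first 30 nt also differed in composition, with 28.3 to 29.3% T on small RNAs against 14.8 to 15.1% elsewhere, and 25.7 to 26.5% A against 37.1 to 38.5%.

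The 5′ ends recurred between libraries. At the 243 small RNA sites found in all 4 libraries, the 4 ends of a site spanned a median of 8 nt, against 15 nt at 3299 other sites. The span was at most 10 nt at 58.4% of the small RNA sites and at 38.6% of the others. A small RNA site entered this comparison only when every library had a peak counted on a small RNA. Sites where a library had only an overlapping peak that was not counted were left out. Since a counted peak must begin close to or within a short gene, this rule favours short spans, and other sites had no such limit. The part of this selection in the difference was not tested. Of 247 genes found in all 4 libraries, 94 had all 4 ends within 5 nt and 9 had the same end in every library, among them Gm25820, Gm26493, Gm26330, Snora43 and Rnu1b1. In 15 genes the ends spanned more than 50 nt.

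From Flag-MBD5 to Flag-MBD6, summit reads on small RNAs rose less than the library totals. Scaling by library total therefore gave lower values for the deeper Flag-MBD6 libraries at nearly every site. The library totals of Flag-MBD6 were 2.14 times those of Flag-MBD5, whereas the median ratio of summit reads over 247 small RNA genes was 1.37. The median ratio was 1.22 for box C/D and 1.56 for box H/ACA snoRNAs. Rnu3a, with 598, 609, 606 and 630 reads, and Snord43, with 103, 99, 104 and 105, had nearly the same counts in all libraries, unlike the typical gene. The authors' collapsing of identical reads and limit of 5 reads per position restrict the counts of short, deeply covered RNAs, and a lower scaled value can follow from depth alone. Depth and protein cannot be told apart in these ratios. Reads at the summit were scaled by the estimated library totals and averaged over the 2 libraries of a protein. At the 243 sites the median log2 of Flag-MBD6 over Flag-MBD5 was −0.65, a ratio of 0.637, and 238 sites (97.9%) were below 0, against 72.4% of all 3542 sites found in all 4 libraries. At the 3299 other sites the median was −0.30 and 2326 (70.5%) were below 0. The SD of the log2 ratio between libraries of 1 protein at small RNA sites was 0.24 for Flag-MBD5 and 0.19 for Flag-MBD6.

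By class, the median log2 ratio, scaled in this way, was −0.81 for box C/D snoRNAs (101 of 102 genes below 0), −0.45 for box H/ACA snoRNAs (48 of 50), −0.85 for U3 (10 of 10), −0.63 for scaRNAs (13 of 14), −0.72 for U1 (14 of 15), −0.51 for U2 (13 of 13) and −0.60 for U5 (7 of 7). Copies of identical sequence, such as those of U1, U2 and U3, were counted here as separate genes. Rnu7 had −1.06 and Rn7s1 −1.08, whereas Rnu12 had −0.11. Snord16a, at −1.22, was among the lowest. Gm24305, a U1 copy, and the scaRNA Gm23370 were among the few above 0, at 0.06 and 0.08.

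The difference between small RNA sites and other sites was smaller where reads were most numerous. At sites with a mean of 30 reads or more the median log2 ratio was −0.68 for 188 small RNA sites and −0.27 for 1449 others. Where the 4 libraries averaged at least 60 reads, the medians were −0.75 at 110 small RNA sites and −0.45 at 349 others, and at sites with at least 100 reads they were −0.75 at 57 and −0.59 at 107.

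Fold enrichment ordered the proteins differently on box C/D and box H/ACA snoRNAs. Over the 243 small RNA sites, both Flag-MBD6 values were below both Flag-MBD5 values at 78 and above them at 37. Over all 3542 sites these orders were found at 10.3% and 56.0%. The fold adds 1 to the pile-up and to the background. At peaks off small RNAs the median background rate was below that, at 0.393 to 0.690 reads over the libraries. The part of unequal depth in these orders was not tested. The median log2 of Flag-MBD6 over Flag-MBD5 in fold enrichment was −0.14 at small RNA sites and 0.45 at other sites. Where summits averaged 100 reads or more it was −0.26 and 0.03, and at 60 reads or more it was −0.33 and 0.27. Of 102 box C/D genes, 45 had both Flag-MBD6 values below both Flag-MBD5 values and 6 had both above, whereas of 50 box H/ACA genes 3 had both below and 16 had both above. In both classes the share with both above was smaller than over all sites. Among U3 genes, of which 4 are identical in sequence and were counted separately, the counts were 6 below and 1 above. The scaRNAs were even at 4 each. The median ratio of summit reads, before scaling, was 1.22 for box C/D and 1.56 for box H/ACA snoRNAs. The difference between the classes was not tested, and the part of the limited read counts in it was not tested either.

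**Figure D4:**
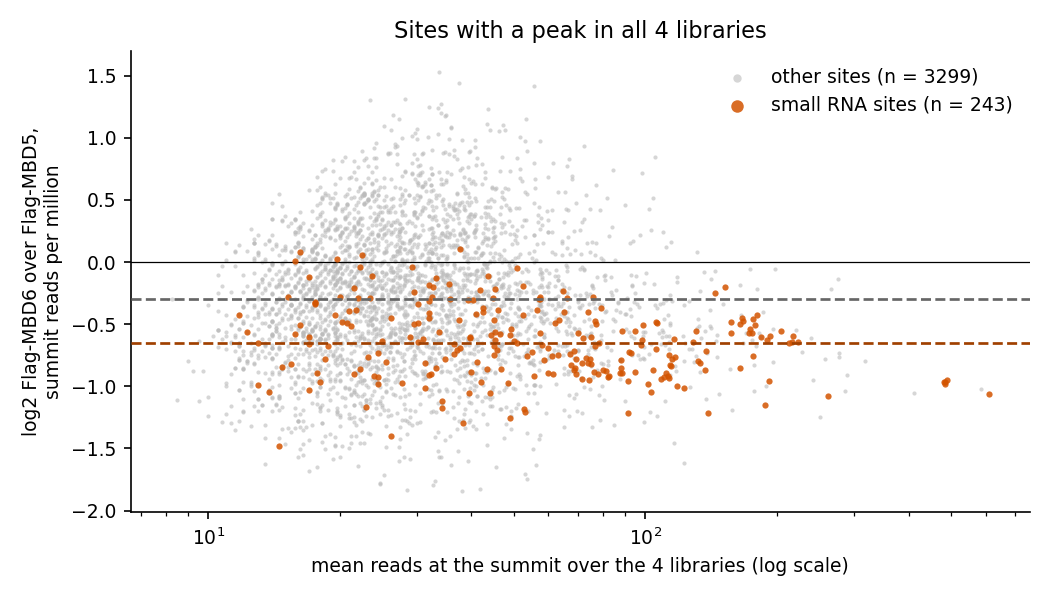
Log2 ratio of Flag-MBD6 to Flag-MBD5 in summit reads scaled by library total (y axis) against the mean number of reads at the summit over the 4 libraries (x axis, log scale), with 1 point per site found in all 4 libraries and dashed lines at the medians. The 243 small RNA sites (orange) lie mostly below 0 around −0.65, and the 3299 other sites (grey) lie around −0.30 with a wider spread that narrows and moves down at high read numbers.

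**Figure D5:**
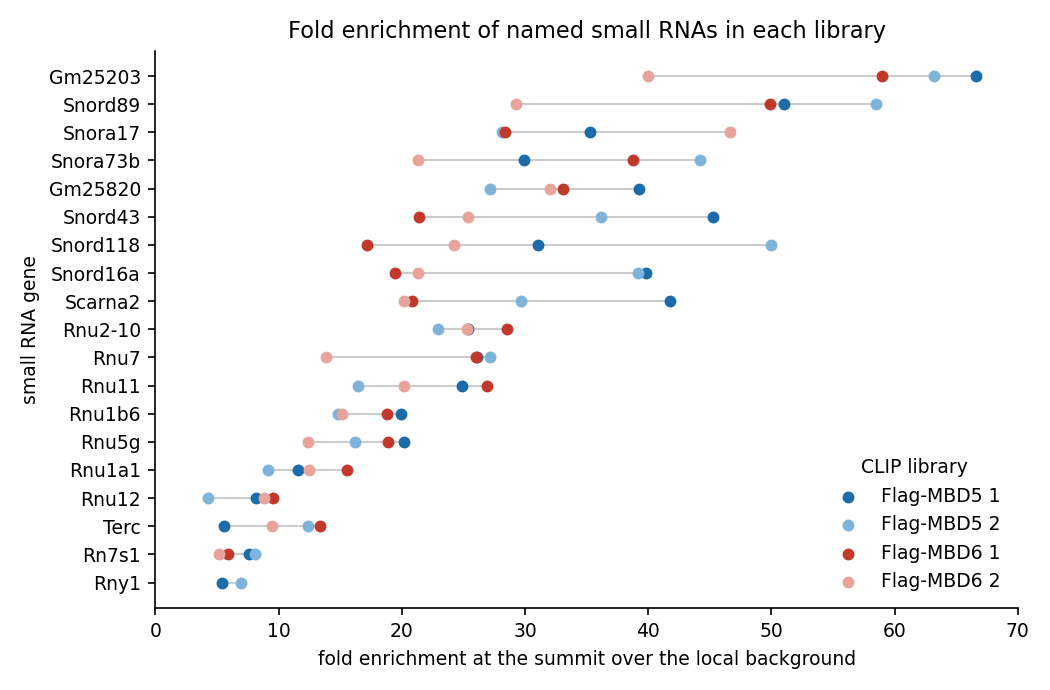
Fold enrichment at the summit over the local background (x axis) for 19 named small RNAs (y axis) in the 4 CLIP libraries, with 1 point per library and a grey line from the lowest to the highest. Gm25203 reaches from 40.01 to 66.6, the 4 values of Rnu2-10 lie between 23.0 and 28.6, and Rny1 has points from Flag-MBD5 only.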

How the data were processed

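CLIP–seq libraries of Flag-MBD5 and Flag-MBD6 (2 each) were analysed as peak lists; the input libraries were not used here. Per the study's methods, the authors collapsed identical reads, dropped rRNA, aligned to mm10 with Bowtie 1.0.0, reporting 1 place for a read with several, split strands with SAMtools 1.16.1 and called peaks per library and strand with MACS2 at q under 0.01 after extending reads to 150 nt, with at most 5 reads kept per position. Whether inputs served as controls is not given in the sources used here. The deposited values are a fold enrichment (a ratio at the summit), a −log10 p and a −log10 q, all written by the authors' peak caller. From the deposited fold and −log10 p, whole reads at the summit and the Poisson background rate were solved, which was possible for 100.0% of peaks (tolerance 0.005), and library totals were estimated from the rate. The solver was tested on simulated data.

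Peaks were assigned to GENCODE M21 genes, snoRNA classes were set by motif because most annotated snoRNA genes carry no Snord or Snora symbol, and sites were formed from peaks of the 4 libraries that overlapped by at least 1 bp on a strand. Shares carry 95% Wilson intervals for counting error. No test was made between the proteins: 2 libraries against 2 cannot go below p = 0.33 in an exact two-sided permutation test, and the libraries of a protein did not differ beyond sampling noise. Of 28 miRNA genes with a peak, 12 matched a RefSeq mature sequence. Named genes were up to 30 with the highest mean fold enrichment among those in all 4 libraries, any snRNA and scaRNA gene, the listed RNAs and up to 10 genes found with 1 protein only. Host genes outside the list, recurring miRNA genes, genes with shared 5′ ends and genes at either end of the read ratio were named after their values were seen. A host gene and some sequences are not reported here. The members and lists were chosen with earlier results of these data known. Alternatives covered the assigning position, strand, q, fold enrichment, overlapping exons, the overlap of sites and the libraries. Python 3.11.15, NumPy 2.4.6, pandas 2.3.3, SciPy 1.17.1, Biopython 1.88 and matplotlib 3.10.9 were used.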

Additional observations from a re-analysis of the deposited data

How the results depend on the processing

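Of 74 alternative values computed for 7 results, 59 stayed within 1.5 times a count or within the interval of a share, and 15 moved. The position that assigned a peak mattered most. With the midpoint, 616 peaks (2.08% of all) lay on 228 small RNA genes, 56.7% of them on snoRNAs, and G preceded 52.5%. With the summit there were 756 peaks (2.56%), 61.9% of them on snoRNAs. Because peaks are at least 150 bp wide and most of these RNAs are shorter, midpoints and summits often lie past the RNA. Without positions in exons of other genes the share of all peaks was 2.86% and the snoRNA share 61.0%. At a fold enrichment of at least 8 the median was 14.1, as the limit removes low values. Leaving out each library in turn gave a share of 3.99 to 4.67% of all peaks, 930 to 969 peaks, 389 to 399 genes, 54.0 to 56.7% with G, a median fold enrichment of 11.8 to 12.4 and a snoRNA share of 70.9 to 72.3%. The share of sites found in all 4 libraries was 59.5% with a reciprocal overlap of 50% and 63.4% at q under 1e-05. No paired analysis was possible because no result comes from a test between groups. Depth and the loss of reads with many matches limit what can be said of the U6 copies, whose summits held 9 to 31 reads.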
